A study of Caenorhabditis elegans with 2 samples.

Results

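A set of 8 genes for structural RNAs that work in RNA processing, protein targeting and RNA quality control was examined in a ChIP-seq study of the tagged nuclear hormone receptor NHR-232 in Caenorhabditis elegans. The set held the RNase P RNA gene rpr-1, the RNase MRP RNA gene mrpr-1, the 5 signal recognition particle (SRP) RNA genes srpr-1.1, srpr-1.2, srpr-2.1, srpr-2.2 and srpr-3, and the Y RNA gene yrn-1. These were 8 of the 46890 nuclear genes of the RefSeq annotation, defined by the RNA they encode. Hermaphrodites of strain OP489 carried the mutation unc-119(tm4063) III and the integrated transgene wgIs489, which expresses NHR-232 fused at the C-terminus to GFP-FLAG. Whole late embryos, 5 hours after synchronisation by bleaching, were sampled as 2 biological replicates of 1 group. The description names an antibody to GFP for the precipitation, whereas the antibody field of the labels names nhr-232. The deposited regions were called against a control alignment, per the file descriptions, but the control was not analysed here, and no untagged or other group was compared. Whole embryos mix all cell types, so no value below belongs to a tissue.

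RNase P is the ribonucleoprotein enzyme that cuts the leader from the 5′ end of precursor transfer RNAs, and RNase MRP, a related enzyme that shares most of its protein subunits, cuts precursor ribosomal RNA. The signal recognition particle binds the signal peptide of a nascent secretory protein and brings the ribosome to the endoplasmic reticulum; its RNA is the scaffold for its proteins. Y RNAs are small partners of the Ro60 protein, named ROP-1 in C. elegans, which takes part in the quality control of misfolded RNAs. In vertebrates all of these RNAs are made by RNA polymerase III, and the RNase P, RNase MRP and Y RNA genes use promoter elements upstream of the gene that resemble those of small nuclear RNA (snRNA) genes.

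The sequences at the starts of the 5 SRP genes are shown because srpr-1.1, srpr-1.2, srpr-2.1 and srpr-2.2 are near copies of each other. This bears on how reads can be placed in them. The gene srpr-3 is a more distant copy. Each line runs 5′ to 3′ on the gene strand from 40 bases before the annotated start to 60 bases into the gene, in the RefSeq WBcel235 genome, the assembly that ce11 names. Capitals mark the bases that are the same in all 5 genes.
srpr-1.1, chrIII:4379147-4379246, minus strand: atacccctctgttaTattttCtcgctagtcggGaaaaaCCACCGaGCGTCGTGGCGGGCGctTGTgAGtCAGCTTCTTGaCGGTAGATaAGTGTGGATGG
srpr-1.2, chrIII:4369428-4369527, plus strand: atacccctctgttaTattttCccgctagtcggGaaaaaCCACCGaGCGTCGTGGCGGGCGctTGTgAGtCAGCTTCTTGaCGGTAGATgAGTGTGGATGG
srpr-2.1, chrIII:5211180-5211279, plus strand: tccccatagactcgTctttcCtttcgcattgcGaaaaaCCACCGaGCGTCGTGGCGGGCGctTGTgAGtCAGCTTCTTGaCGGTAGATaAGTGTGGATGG
srpr-2.2, chrIII:5031649-5031748, minus strand: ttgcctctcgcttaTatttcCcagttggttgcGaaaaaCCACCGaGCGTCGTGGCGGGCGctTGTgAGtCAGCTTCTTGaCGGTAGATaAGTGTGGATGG
srpr-3, chrV:9293573-9293672, minus strand: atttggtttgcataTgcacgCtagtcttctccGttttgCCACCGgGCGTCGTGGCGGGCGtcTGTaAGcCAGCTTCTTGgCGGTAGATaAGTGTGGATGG
Of the first 60 bases of the genes, 53 were the same in all 5, against 5 of the 40 bases before the start.

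The starts of mrpr-1, yrn-1 and the snRNA gene W05B2.8 are shown because they share a spaced pattern at about the same distance from the gene. Each line runs from 80 bases before the annotated start to 20 bases after the first base, 5′ to 3′, in the RefSeq WBcel235 genome. Capitals mark the fixed bases of the pattern, which is AACNC and, 6 bases on, TGTCNG, where N is any base, and the letters TATATA. The pattern and TATATA were chosen after these sequences had been seen.
mrpr-1, chrII:7200153-7200253, plus strand: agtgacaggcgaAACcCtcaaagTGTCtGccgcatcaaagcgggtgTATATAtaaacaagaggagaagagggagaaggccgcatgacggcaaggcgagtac
yrn-1, chrIV:7499428-7499528, plus strand: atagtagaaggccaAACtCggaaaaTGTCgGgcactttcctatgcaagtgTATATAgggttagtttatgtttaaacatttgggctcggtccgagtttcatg
W05B2.8, chrIII:10989599-10989699, plus strand: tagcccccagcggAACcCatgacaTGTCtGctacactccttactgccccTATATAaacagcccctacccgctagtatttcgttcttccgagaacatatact

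The first question was which of these genes lay at regions where the tagged receptor was recovered. The irreproducible discovery rate (IDR) procedure compares how regions rank between replicates, and the authors' optimal list of those that passed it held 519. These were the strongest of the 21094 regions called as candidates on both replicates together. Passing does not by itself show that a region ranked alike in both replicates. A gene counted as having a region when the region's summit, its deposited point of highest signal, lay in the gene or within 200 bp of it. By this measure 7 of the 8 genes had an IDR region: all genes for RNase P, RNase MRP and SRP RNAs had one, and yrn-1 had none. Over all nuclear genes the share was 1.76%, and over 5816 nuclear noncoding genes of 100 to 300 bp, the size of these genes, it was 2.87%. The share was 33.0% of 612 transfer RNA (tRNA) genes, 15.0% of 346 small nucleolar RNA genes and 7.75% of 129 snRNA genes. The 5 SRP genes share most of their sequence, so these are not 7 independent cases.

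Regions at the members ran from rank 91 to rank 467 of the IDR list. The signal is the authors' own value per region, on a scale not given in the sources used here, and the rank counts from the strongest region of a list. The strongest region of each of the 7 genes had a pooled signal of 94.0 to 258 with a median of 184. The 167 noncoding genes of 100 to 300 bp with an IDR region had 89.7 to 610 with a median of 153, and all 519 IDR regions had a median of 135. The 259 strongest IDR regions held those of 5 genes (rpr-1, srpr-2.2, mrpr-1, srpr-2.1 and srpr-1.1), while srpr-1.2 and srpr-3 fell below that rank. None of the 7 genes had a region above rank 91.

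Both replicates gave a region at each of the same 7 genes. When the 519 strongest regions were taken from each replicate's own list, 6 of the 8 genes had a summit in both, against 2.2% of the noncoding genes of 100 to 300 bp. The gene that missed this limit was srpr-3, at rank 436 in replicate 1 and rank 774 in replicate 2. Most pooled candidates did not pass the IDR procedure, but all IDR regions are among them. The same 7 genes therefore had to have a pooled summit, and this count adds nothing to the IDR count. Of the noncoding genes of that size, 30.1% had a pooled summit.

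**Figure D1:**
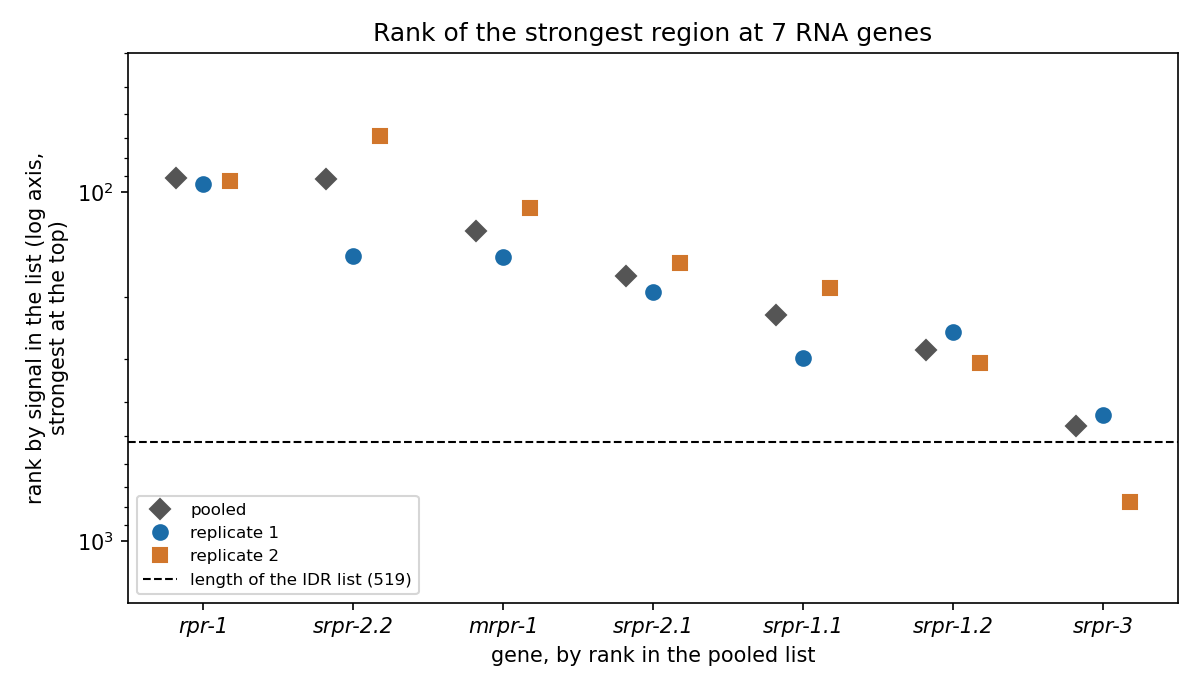
Rank by signal (log axis, strongest at the top) of the strongest region at each gene in the pooled list (grey diamonds), in replicate 1 (blue circles) and in replicate 2 (orange squares); yrn-1 has no region and is not drawn. The dashed line marks rank 519, the length of the IDR list: the srpr-3 region of replicate 2, at rank 774, is the one point below it.

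The RNase P RNA gene rpr-1 (Y48G10A.7, I 13463955 to 13464207, plus strand, 253 bp) had the strongest region of the set in the pooled list and in replicate 1, while both regions of srpr-2.2 were stronger in replicate 2. Its pooled signal was 258, at rank 91, next to srpr-2.2 at 257 and rank 92. The replicate signals were 125 in replicate 1, at rank 95 of 20530, and 129 in replicate 2, at rank 93 of 22891. The ranks of rpr-1 thus lay within 4 places in all lists. Its summit was 46 bp from the first base of the gene in the pooled list, 45 bp in replicate 1 and 46 bp in replicate 2. The deposited IDR region (I 13463882 to 13464040) was 159 bp wide, narrower than the usual 470 bp. A weaker region near the 3′ end of the gene, with its pooled summit at 248 bp and a signal of 70.2, ranked 943 and did not pass the IDR procedure; that summit ranked 746 in replicate 1 and 5151 in replicate 2. The gene lies in an intron of ints-8, which encodes a subunit of the Integrator complex, on the opposite strand, with 0 of its bases in exons. The nearest other protein-coding genes, Y48G10A.6 and ndrr-1, were 11109 and 6384 bp away.

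The RNase MRP RNA gene mrpr-1 (E04F6.16, II 7200233 to 7200418, plus strand, 186 bp) followed rpr-1 and srpr-2.2 by pooled signal, at 218 and rank 129. Its signal was 97.7 at rank 154 in replicate 1, and 122 at rank 111 in replicate 2. The summit lay inside the gene in both replicates, 35 bp from the first base in replicate 1 and 65 bp in replicate 2, and 65 bp in the pooled list. Replicate 1 also had a weak second region downstream of the gene, at rank 11163. Unlike rpr-1, mrpr-1 lies between protein-coding genes. The gene pcrg-1, a homologue of the Parkin coregulated gene, starts 130 bp downstream on the same strand, and E04F6.6 starts 667 bp upstream on the opposite strand. The IDR summit therefore also fell at -251 bp from the start of pcrg-1 and at -733 bp from that of E04F6.6. Which of the 3 genes the region belongs to cannot be told apart from position alone.

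**Figure D2:**
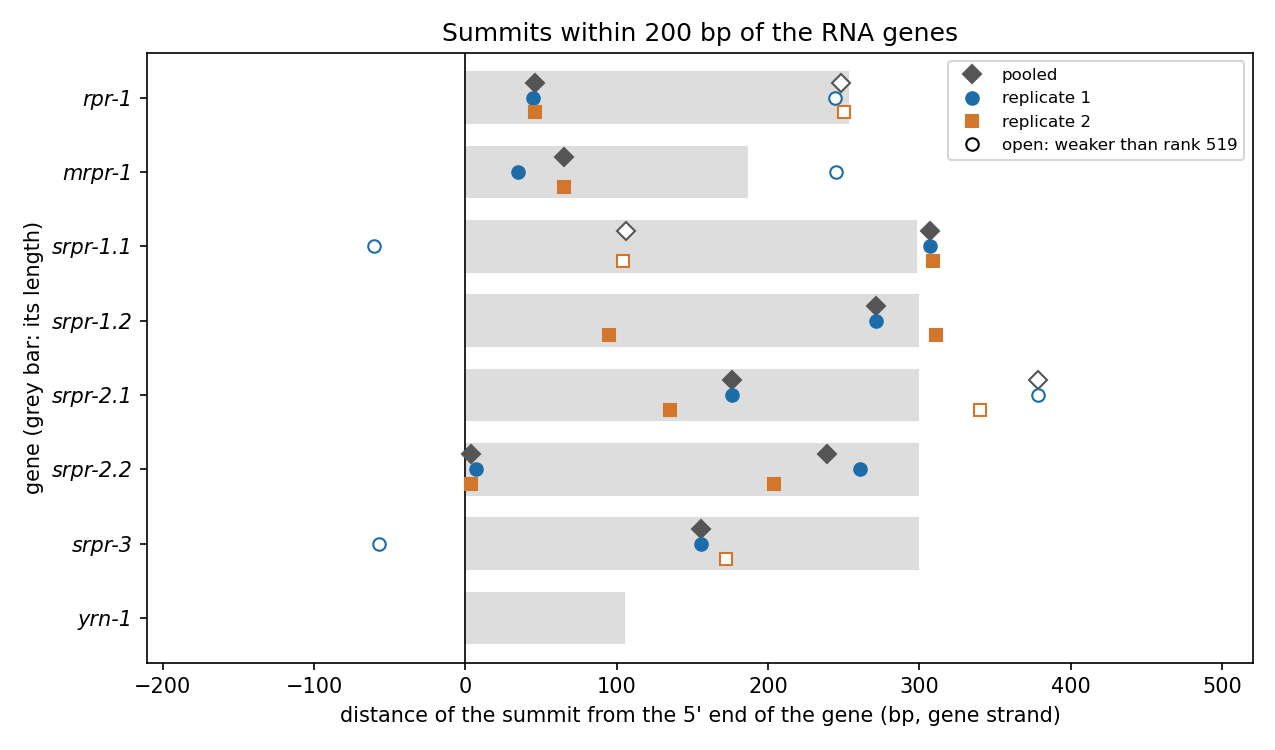
Position of every summit within 200 bp of each gene, in bp from the first base along the gene strand, for the pooled list (grey diamonds), replicate 1 (blue circles) and replicate 2 (orange squares); grey bars are the genes, and open symbols are regions weaker than rank 519 of their list. Filled symbols lie inside the gene or just past its 3′ end, and the 2 summits upstream of a gene (at -60 and -57 bp, both in replicate 1) are open.

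All 5 SRP RNA genes had an IDR region, with 6 such regions between them, and their order by pooled signal was srpr-2.2, srpr-2.1, srpr-1.1, srpr-1.2 and srpr-3. Replicate 2 gave the same order, and in replicate 1 srpr-1.2 stood above srpr-1.1. The strongest, srpr-2.2 (R144.15, III 5031410 to 5031708, minus strand, 299 bp), had 2 IDR regions, which no other member had. Their pooled signals were 257 at rank 92, with the summit 239 bp from the first base, and 245 at rank 100, with the summit at 4 bp. In replicate 1 the region at the start of the gene had a signal of 97.8 (summit at 7 bp) and the region towards the end 97.0 (summit at 261 bp). In replicate 2 the region at the start had 146 (summit at 4 bp) and the region towards the end 159 (summit at 204 bp), at ranks 78 and 69. The summit at the start of the gene thus kept its place between replicates more closely than that towards the end. The gene lies in an intron of klp-6, a kinesin gene, on the opposite strand, and the unclassified noncoding RNA gene R144.16 overlaps its first 39 bases.

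The bases around both IDR summits of srpr-2.2 are shown, since it was the gene with a pair of them, 5′ to 3′ on the minus strand of the RefSeq WBcel235 genome, with the summit base in capitals.
summit at 239 bp, chrIII:5031439-5031499: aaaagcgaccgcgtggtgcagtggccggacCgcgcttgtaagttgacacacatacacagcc
summit at 4 bp, chrIII:5031674-5031734: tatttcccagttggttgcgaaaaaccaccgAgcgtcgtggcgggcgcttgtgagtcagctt

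The near copy srpr-2.1 (ZC155.8, III 5211220 to 5211518, plus strand, 299 bp) had 1 IDR region, of signal 184 at rank 174. Its signal was 82.0 at rank 193 in replicate 1, and 101 at rank 160 in replicate 2. The summit lay in the middle of the gene, at 176 bp in the pooled list and in replicate 1, and at 135 bp in replicate 2. Weaker regions past the 3′ end were at rank 11065 in the pooled list and rank 850 in replicate 2. The gene lies between protein-coding genes, with syx-16, which encodes a syntaxin, 2110 bp upstream and ZC155.4 477 bp downstream.

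At srpr-1.1 (B0284.6, III 4378909 to 4379206, minus strand, 298 bp) the IDR summit lay 10 bp past the 3′ end, at 307 bp, and it was the single IDR summit of the set outside its gene. Its pooled signal was 152 at rank 225. The signal was 62.8 at rank 299 in replicate 1 and 88.7 at rank 189 in replicate 2, with the summits at 307 and 309 bp. A weaker region inside the gene, at 106 bp, had rank 3873 in the pooled list and rank 2207 in replicate 2. The gene pals-26, on the opposite strand, ends 1 bp from the 3′ end of srpr-1.1, so the IDR summit lies inside pals-26 and outside srpr-1.1. Which of these genes the region belongs to cannot be told apart from position alone. On the other side B0284.3, which encodes a protein with an RNA recognition motif, ends 114 bp upstream.

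The other copy of that pair, srpr-1.2 (B0285.12, III 4369468 to 4369766, plus strand, 299 bp), had a pooled signal of 127 at rank 283. Its signal was 69.8 at rank 252 in replicate 1 and 63.0 at rank 308 in replicate 2. The replicates placed it differently: the summit was at 271 bp in replicate 1, and at 95 bp in replicate 2, which also had a region of nearly the same signal (57.7, rank 359) at 311 bp. The gene lies on the same strand in an intron of ckb-2, a choline kinase gene, between ckb-1 and ckb-3.

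The most divergent copy, srpr-3 (F44A2.8, V 9293334 to 9293632, minus strand, 299 bp), had the weakest region of the set. Its pooled signal was 94.0 at rank 467, close to the lowest signal of the IDR list (89.4). The signal was 49.5 in replicate 1 and 41.4 in replicate 2, where it fell below rank 519. The summit lay in the middle of the gene, at 156 bp in replicate 1 and 172 bp in replicate 2. The unclassified noncoding RNA gene F44A2.13, 300 bp long on the same strand, covers it entirely, and the nearest protein-coding gene, ZK682.7, was 1168 bp away.

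To set the replicates side by side, each signal was divided by the median signal of the 519 strongest regions of its own list, which was 69.1 in replicate 1 and 70.8 in replicate 2. A gene's strongest region was taken in each replicate, so its values can come from different regions. This was so at srpr-2.2 (summits at 7 bp in replicate 1 and 204 bp in replicate 2). At srpr-1.2 the summits lay at 271 and 95 bp. Region by region, srpr-2.2 gave 1.42 and 2.06 at its start and 1.40 and 2.25 towards its end. The ratio of rpr-1 was 1.81 in replicate 1 and 1.83 in replicate 2, a mean of 1.82 ± 0.00745 (SD, n = 2). The ratio of srpr-2.2 had nearly the same mean with a far wider spread, 1.42 in replicate 1 and 2.25 in replicate 2 (1.83 ± 0.588). Next was mrpr-1, at 1.41 in replicate 1 and 1.72 in replicate 2 (1.57 ± 0.216). These 3 genes had the highest mean ratios of the set. For srpr-2.1 it was 1.19 in replicate 1 and 1.43 in replicate 2 (1.31 ± 0.169), and for srpr-1.1 it was 0.909 and 1.25 (1.08 ± 0.243). For srpr-1.2 it was 1.01 in replicate 1 and 0.890 in replicate 2 (0.950 ± 0.0857), and for srpr-3 it was 0.717 and 0.584 (0.651 ± 0.0940). The ratio was higher in replicate 2 for rpr-1, mrpr-1, srpr-1.1, srpr-2.1 and srpr-2.2, and higher in replicate 1 for srpr-1.2 and srpr-3. The values of srpr-3 lay below those of the other 6 genes with a region in both replicates. In the order of the means, the replicate values of srpr-2.2 enclosed those of rpr-1, and those of rpr-1 lay above those of mrpr-1. From mrpr-1 through srpr-2.1 and srpr-1.1 to srpr-1.2, each gene overlapped the next.

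The next question was how far the SRP genes can be told apart. Across their aligned length, srpr-1.1 and srpr-1.2 were 99.3% identical (293 of 295 bases), and srpr-2.1 and srpr-2.2 were 99.0% identical (296 of 299). The identity between these pairs ran from 94.3 to 95.2%, and srpr-3 was 81.9 to 82.7% identical to the others. The genes rpr-1, mrpr-1 and yrn-1 matched no place in the genome but their own. A stretch of 50 bases counted as unique when its exact sequence occurs once in the genome. Inexact matches were not counted, so a unique stretch can differ at few bases from the same part of a near copy. The length of 50 bases was a setting and was not taken from the reads. The unique share was 100% in rpr-1, mrpr-1, srpr-3 and yrn-1. It was 23.3% in srpr-1.1, 41.2% in srpr-1.2, 38.8% in srpr-2.1 and 40.4% in srpr-2.2. How the authors treated reads that match several places is not given in the sources used here, so the split of signal among these 4 genes is uncertain.

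The summits at the near copies differed in how unique their surroundings were. Within 50 bp of the IDR summit of srpr-1.1, which lies past the end of the gene, 100% of the 50-base stretches occurred once, and for srpr-1.2 it was 88.5%. For srpr-2.2 it was 80.8% at the summit towards the end and 65.4% at the summit at the start. For srpr-2.1 it was 0%, so no 50-base stretch wholly within 50 bp of that summit is particular to this gene. Where the reads behind the summit lay is not known. Replicate 2 placed the strongest summits of 3 of these genes well away from those of the pooled list. The share was lower at the 95 bp summit of srpr-1.2 (7.69%) and the 204 bp summit of srpr-2.2 (13.5%), and higher at the 135 bp summit of srpr-2.1 (9.62%). Replicate 1 also placed the summits of srpr-2.2 elsewhere, at 261 bp, where the share was higher (100%), and at 7 bp, where it was lower (59.6%). The part of read placement in these differences was not tested. For rpr-1, mrpr-1 and srpr-3 the share was 100% at every summit.

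**Figure D3:**
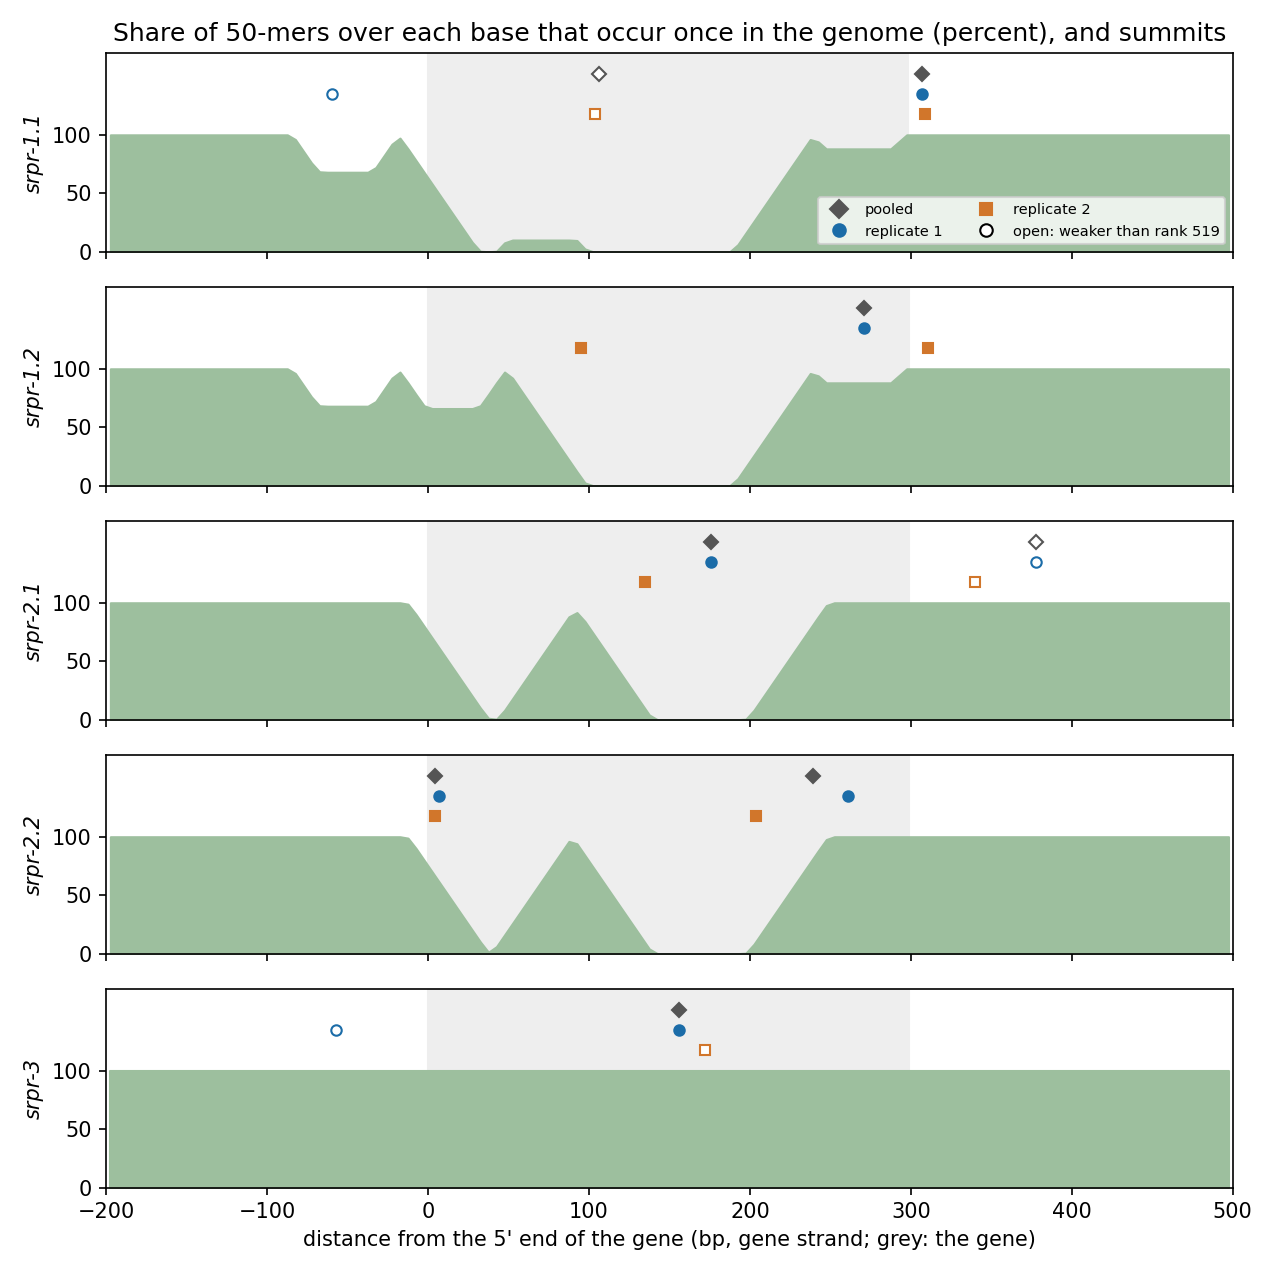
For each SRP gene, the share of the 50-base stretches over each base that occur once in the genome (green, percent), against the distance in bp from the first base along the gene strand, with the gene in grey. Symbols are summits of the pooled list (grey diamonds), replicate 1 (blue circles) and replicate 2 (orange squares), open where weaker than rank 519: srpr-3 is unique throughout, and the summits of srpr-2.1 inside the gene lie where the share is at or near 0.

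Beyond the SRP genes themselves, 6 short stretches on the X chromosome matched the first bases of an SRP gene over 47 to 55 bp, all of them matches of srpr-3. Of these, 1 had a pooled candidate within 200 bp, at rank 9106, and none had an IDR region.

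The Y RNA gene yrn-1 (F55G1.16, IV 7499508 to 7499612, plus strand, 105 bp) was the member without a region. No list held a summit within 200 bp or within 2000 bp of it. The nearest pooled candidate was 8768 bp away, at rank 16357, and the nearest summits of the single replicates were 6013 bp away in replicate 1 and 9169 bp away in replicate 2. The nearest IDR summit was 74444 bp away. All 50-base stretches of yrn-1 occur once in the genome, as given above. The deposited lists give no signal outside their regions, so a level at yrn-1 below the lists' lowest signals (14.0 in replicate 1 and 12.8 in replicate 2) cannot be told from none. The gene lies on the opposite strand in an intron of F55G1.15, annotated as Otopetrin-2, and within the noncoding RNA gene F55G1.20.

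The upstream sequences divided the members otherwise than the signal did. The spaced pattern of AACNC and TGTCNG was searched on both strands from 250 bases before to 50 bases after the first base of each gene. It occurred at rpr-1, mrpr-1 and yrn-1 and at none of the 5 SRP genes. It occurred at 31 of 129 genes annotated as snRNA genes, a group that includes spliced leader RNA genes (24.0%), and at 64 of 19971 protein-coding genes (0.320%). Its first base was at -66 in rpr-1, -68 in mrpr-1 and -66 in yrn-1, on the gene strand. TATATA followed on the same strand at -30 in rpr-1, -34 in mrpr-1 and -30 in yrn-1, with gaps of 19, 17 and 19 bases between the elements. No binding by any factor is shown by these letters, and the 3 genes that hold them include both rpr-1, with the highest pooled signal of the set, and yrn-1, with none.

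The same arrangement, with the pattern and TATATA on the gene strand, occurred at 6 snRNA genes, where the median pattern start was -66.5 and the median gap was 19 bases. Of these 6, 3 had an IDR region: W05B2.8 (pooled signal 347, rank 55), F54D8.7 (156, rank 216) and R07E5.16 (93.3, rank 473). The other 3, K09B11.11, K09B11.14 and K09B11.16, had no summit in any list within 200 bp, as at yrn-1. Unlike for yrn-1, the share of unique stretches in these 3 genes was not counted. Among all snRNA genes, 5 of the 29 with the pattern on the gene strand and 5 of the 100 without it had an IDR region.

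**Figure D4:**
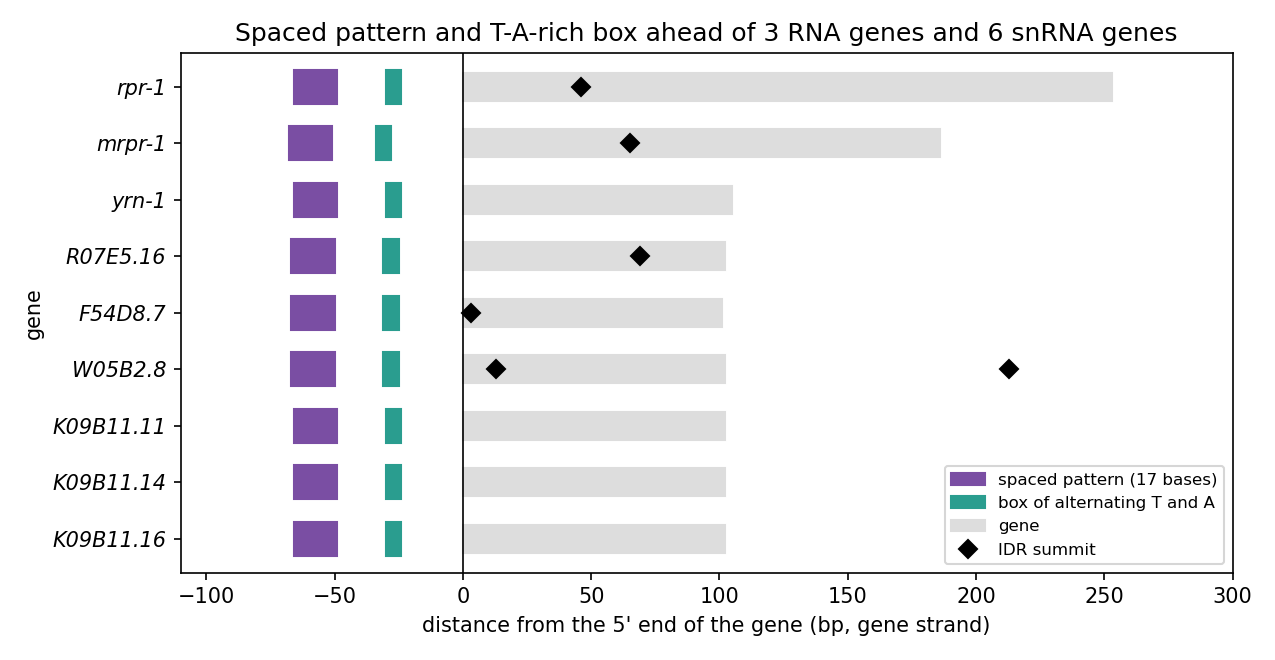
Layout of the spaced pattern (purple), the alternating T and A box (green), the gene (grey) and the IDR summits (black diamonds) at rpr-1, mrpr-1, yrn-1 and the 6 snRNA genes that hold both elements, in bp from the first base along the gene strand. The elements keep their distance from the gene in all 9, and 4 of them, yrn-1 among these, have no IDR summit.

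Other letters searched included short elements of RNA polymerase promoters. TATAA occurred in the windows of 7 of the 8 members, 57.4% of the snRNA genes and 57.8% of the protein-coding genes. TATAAA occurred at 4 of the 8 members, 31.0% of snRNA genes and 37.9% of protein-coding genes. These counts took either strand and any place in the window. Near -30 on the gene strand, TATAA lay at rpr-1 (-28) and mrpr-1 (-30), and TATAAA at mrpr-1 alone (-30). TATAA lay at -29 on the opposite strand at srpr-1.1, srpr-1.2 and srpr-2.2. All other matches of TATAA and TATAAA at members lay at -103 or farther upstream. GTTCGA, which lies in the B box inside tRNA genes, occurred at 0 of the 8 members, at 13.2% of snRNA genes and at 9.95% of protein-coding genes. The windows held only the first 50 bases of each gene, so a B box farther inside was not searched for. A run of TTTT, which forms the usual end signal of RNA polymerase III, lay between 10 bases before and 30 bases after the 3′ end in 8 of the 8 members. A run of TTTTT lay within the 30 bases after the 3′ end in 4 of them. The limits of the TTTT search were chosen after seeing the sequences, and its share at other genes was not counted.

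Most IDR summits of the members lay inside the genes. With the strongest IDR summit of each gene, 6 of 7 members had it inside the gene, 1 downstream and 0 upstream, at a median of 176 bp from the first base (quartiles 110.5 and 255). Of 52 small nucleolar RNA genes with an IDR region, 49 had the summit upstream and 2 inside the gene, at a median of -52.5 bp. Of 202 tRNA genes, 60 had it upstream and 120 inside, at a median of 12 bp, and of 10 snRNA genes, 2 had it upstream and 6 inside, at a median of 41 bp. The SRP genes are longer than most of these, so a summit inside the gene can lie farther from the start. A longer gene also fills more of the stretch searched, which reached 200 bp past each end. The counts inside and outside the gene therefore depend on length too. The summits of rpr-1 and mrpr-1, at 46 and 65 bp, lay nearer to the start than those of the SRP genes, apart from the srpr-2.2 summit at 4 bp.

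The genes for the protein partners of these RNAs had no IDR region. The promoter window of a protein-coding gene reached 1000 bp upstream and 200 bp downstream of its start. Of 15 genes for subunits of RNase P, RNase MRP, the SRP and its receptor and for ROP-1, 0 had an IDR summit there, against 1.36% of all protein-coding genes; with 15 genes, 0 is not a result about them. Pooled candidates lay at 6 of the 15 (40%), against 27.2% of all protein-coding genes. Among them were F37F2.2, which encodes the 19 kDa protein of the SRP (signal 56.1, rank 1826), and srpa-72, another SRP subunit gene (35.3, rank 8127). The rop-1 promoter had none, and neither did popl-1, popl-4 and popl-5, which encode subunits of RNase P or MRP. Of 26 genes for RNA polymerase III, its factors and the snRNA activating complex, 0 had an IDR summit. Against 1.36% of all protein-coding genes, 0 of 26 is again not a result about them. Pooled candidates lay at 11 of the 26 (42.3%), against 27.2% of all protein-coding genes. The strongest of these were at rpc-1, the gene for an RNA polymerase subunit (47.4, rank 3145), and rpc-2 (39.3, rank 5839), followed by tbp-1, the TATA-binding protein gene (37.1, rank 7051).

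For each member with an IDR region, the noncoding genes whose replicate signals were most like its own were found by Euclidean distance in log2 signal over the 2 replicates, among 506 genes. For rpr-1 the likest was the tRNA gene C02B4.t1 at a distance of 0.07 (119 in replicate 1 and 128 in replicate 2), then R04D3.t2 at 0.09. For mrpr-1 it was the small nucleolar RNA gene T04A8.17 at 0.03 (97.9 and 125), then ZK622.8 at 0.05. At srpr-2.2 and srpr-3 the likest were R144.16 and F44A2.13, which overlap them and share their regions, followed by ZK678.11 at 0.17 and K11D9.7 at 0.05. The likest of srpr-1.1 were Y65A5A.t1 and ZK546.18, those of srpr-1.2 were C16D9.12 and C16D9.t2, which share a region, and those of srpr-2.1 were F30H5.4 and T04D3.t4. With only 2 values per gene, such likeness describes signal levels alone.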

How the data were processed

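The deposited ChIP-seq regions of 2 biological replicates were used in the ce11 build; the ce10 lists were not used, since no coordinates were converted. Per the file headers and descriptions, the authors called candidate regions on each replicate and on the pooled replicates against a control alignment, and passed them through the IDR procedure. The deposited signal of a region is the authors' value, with no stated scale, so it was read within a list or divided by a median of the same list. The deposited −log10 q values of the IDR regions ran from 1.43 to 2.21 and were not used to choose regions. An aligner, a caller and read filters were not given in the sources used here, and read totals were not used, so depth is unknown and no interval is given.

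Gene positions, products and sequences came from the RefSeq annotation and genome of WBcel235, with Ensembl release 115 as an alternative, and 0 regions ran past a chromosome end. A gene took the strongest region with its summit within 200 bp. Offsets count from 0 at the first base, negative upstream. Ranks, counts and motif matches were computed with pandas 2.3.3 and numpy 2.4.6 under Python 3.11.15, figures were drawn with matplotlib 3.10.9, and copies were found with blastn 2.17.0. The assignment rule was tested on simulated data. With 1 group no test was made. The genes, protein lists and rule for named genes (neighbours, hosts and the 2 likest noncoding genes) were chosen with earlier results of these data known. Of 17 names listed for the transcription machinery, 15 matched a protein-coding gene, and further genes were added by product name. Bases from the chromosome of rpr-1 are not printed. The values of 1 gene of the protein list are not reported here.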

Additional observations from a re-analysis of the deposited data

How the results depend on the processing

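The count of genes with an IDR region was 7 of 8, and 8 alternatives gave 5 to 7. It was 6 when the summit had to lie inside the gene, which lost srpr-1.1, and 5 with the 259 strongest IDR regions, which lost srpr-1.2 and srpr-3. With the 519 strongest regions of a single replicate it ranged from 6 (without replicate 1, which lost srpr-3) to 7 (without replicate 2). It stayed at 7 with distances of 100 or 500 bp, with overlap in place of the summit, and with Ensembl gene positions. The count in both replicates was 6, and it was 4 with 259 regions per replicate, which lost srpr-1.1 and srpr-1.2, and 7 with 1000. Pooled signals and summit offsets of single genes counted as moved when they differed from the main value by more than 1 SD of the 2 replicates, a tolerance that is narrow for rpr-1 and wide for srpr-2.2, and unique shares when they differed at all. By this measure 22 alternative values did not move and 14 did. Much of this split was fixed by the rule. Each pooled summit lay at or near that of 1 replicate, so at each of the 7 genes 1 replicate offset moved and the other did not. At mrpr-1, srpr-1.2 and srpr-3, with 1 pooled region, the nearest summit could not differ. Pooled signals were judged by the SD of the smaller replicate signals. The split is therefore no measure of how firm the values are. When the summit nearest to the 5′ end was taken, the region of srpr-1.1 changed from 152 at 307 bp to 44.6 at 106 bp, and that of srpr-2.2 from 257 at 239 bp to 245 at 4 bp. With 36-base stretches, chosen after seeing the data, the unique share was 14.8% in srpr-1.1, 28.8% in srpr-1.2, 31.4% in srpr-2.1 and 33.0% in srpr-2.2. No paired analysis was possible because no test was made. Limits are 1 group, 2 replicates, a control not analysed here, unknown depth and mapping, and lists that hold no signal outside their regions.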
